A study of Sus scrofa with 60 samples.

Results

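The genes of hepatic cholesterol synthesis HMGCS1, SQLE, LSS, DHCR7, MSMO1, and INSIG1, were followed in the liver of neonatal pigs across 3 forms of nutrition with and without bile duct ligation (BDL). The genes were chosen by name. Of the 7 names given, 6 were found among the 30335 named genes of the count table, and all 6 passed the filter on low counts. The name IDI1 was not found as a gene symbol, but the row LOC100625049 was described as isopentenyl-diphosphate Delta-isomerase 1. It is reported beside the 6 genes and is not counted with them. The set was labeled cholesterol synthesis and LDL uptake. Since none of the 6 genes takes up lipoprotein, uptake is described only from a separate list of pathway genes.

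Cholesterol is built in the liver from acetyl-CoA through the mevalonate pathway. HMGCS1, a cytosolic synthase, joins acetoacetyl-CoA and acetyl-CoA into HMG-CoA, and IDI1 isomerizes the isoprenoid unit that is assembled into squalene. SQLE oxidizes squalene, LSS closes the ring to give lanosterol, MSMO1 helps remove methyl groups from the sterol ring, and DHCR7 carries out the last reduction to cholesterol. INSIG1 is no enzyme: when sterols are plentiful in the endoplasmic reticulum, it holds back SCAP and the transcription factor SREBP-2, which drives genes of synthesis and of lipoprotein uptake. INSIG1 is itself transcribed under SREBP, and hepatic cholesterol also leaves as bile acids.

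RNA-Seq was carried out on 60 liver libraries from preterm pigs of both sexes and mixed Landrace and Hampshire breeding, aged 14 days, all of which carried jugular catheters and started on parenteral nutrition (PN) on the first day. The cystic and common bile ducts were ligated or left intact in the sham operation. Pigs then received milk replacer formula by orogastric tube (ENT), which replaced PN stepwise and was the whole feed from day 7, or stayed on PN with a soy lipid emulsion (SLE, Intralipid) or a multicomponent lipid emulsion (MLE, SMOFlipid), each matched for calories. The sham groups held 12 (ENT), 10 (SLE), and 9 (MLE) libraries and the BDL groups 10 (ENT), 11 (SLE), and 8 (MLE). The labels give 9 distinct pig identifiers for the 10 SLE-sham libraries, and n counts libraries throughout. The comparisons of ENT with PN do not separate the route of feeding from what was fed. Libraries held 14469788 to 21374161 counts on named genes (median 17254606). All 10 hepatocyte markers examined had a median above 0 in every group. Values are given as CPM, counts scaled to the library size.

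A few libraries stood apart. ENT-sham replicate 2 and ENT-BDL replicate 1 were far closer to each other (chi-square per degree of freedom 1.91) than were the libraries of every other pair (the next lowest of 1770 pairs was 16.1). ENT-sham replicate 2 also went against its label, since its summed cholangiocyte markers were 395 CPM, against 88.2 to 219 CPM in the other 11 ENT-sham libraries, and its summed stellate cell and fibroblast markers were 4133 CPM, against 1210 to 2183 CPM. One pig identifier is shared by replicates 9 and 10 of SLE-sham, which differed about as much as other libraries of a group (34.2, against a within-group median of 53.4). Whether the matching ENT libraries are 1 liver under 2 labels was not tested, and they are counted separately in the n, mean, and SD of ENT-sham and ENT-BDL. If SLE-sham replicates 9 and 10 are 1 pig, they are not independent. Some results that include these libraries are also given without them. The others, among them the marker means and the correlations, are given only with them.

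HMGCS1 (gene ID 100524223, Sscrofa11.1 chromosome 16, 27936225 to 27957261) showed the widest range between groups among the 6 genes. In ENT-sham livers the lowest, median, and highest HMGCS1 values were 105, 187, and 549 CPM, and the highest was that of replicate 2. Without that library the ENT-sham values ended at 306 CPM. ENT-BDL livers ran from 498 through a median of 688 to 1069 CPM, so 11 of 12 ENT-sham livers lay below every ENT-BDL liver. Among PN-fed pigs, SLE-sham values were 477, 921, and 1252 CPM (lowest, median, highest), SLE-BDL values were 591, 755, and 1615 CPM, MLE-sham values were 417, 733, and 1277 CPM, and MLE-BDL values ran from 651 to 1131 CPM with a mean of 884 ± 152 CPM (SD, n = 8). The 4 PN groups therefore overlapped widely with each other and with ENT-BDL. The ENT-sham mean was 230 ± 119 CPM (SD, n = 12), or 201 ± 67.2 CPM without replicate 2 (n = 11), against means of 712 to 963 CPM in the other groups. HMGCS1 was higher in ENT-BDL than in ENT-sham by a log2 fold change of 1.63 (SE 0.20, adjusted p = 6.28e-08 by the edgeR quasi-likelihood test). Compared with ENT-sham, it was also higher in SLE-sham (2.07, SE 0.20, adjusted p = 8.64e-12) and in MLE-sham (1.79, SE 0.21, adjusted p = 2.04e-09). Leaving out ENT-sham replicate 2 gave 1.82, 2.26, and 1.98, and the SLE-sham value was 2.08 without SLE-sham replicate 9 and 2.14 without replicate 10.

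SQLE (gene ID 100113409, chromosome 4, 14669789 to 14700152), whose enzyme takes the first oxygen-requiring step towards sterols, had the same low group. ENT-sham livers held 71.1, 106, and 136 CPM (lowest, median, highest), and ENT-BDL livers held 118, 181, and 239 CPM. Of 10 ENT-BDL livers, 9 lay above every ENT-sham liver. In the PN groups SQLE medians were 179 CPM in SLE-sham, 157 CPM in SLE-BDL, 185 CPM in MLE-sham, and 170 CPM in MLE-BDL, with single livers from 116 to 256 CPM. SQLE was higher in ENT-BDL than in ENT-sham (log2 fold change 0.73, SE 0.12, adjusted p = 2e-05), and higher in SLE-sham (0.68, SE 0.12, adjusted p = 2.06e-05) and MLE-sham (0.81, SE 0.13, adjusted p = 2.26e-06) than in ENT-sham. The rise was thus smaller in log2 units than that of HMGCS1 in the same livers.

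The isomerase row LOC100625049 (chromosome 10, 68534520 to 68539279) followed HMGCS1 and SQLE. Its means were 176 ± 54.8 CPM in ENT-sham (SD, n = 12), 324 ± 64.6 CPM in ENT-BDL (n = 10), and 358 ± 73.7 CPM in SLE-sham (n = 10). Of 12 ENT-sham livers, 11 were below every ENT-BDL liver, and the exception was again replicate 2, at 277 CPM. The log2 fold change against ENT-sham was 0.88 in ENT-BDL (SE 0.16, adjusted p = 3.84e-05), 1.02 in SLE-sham (SE 0.16, adjusted p = 5.97e-07), and 1.05 in MLE-sham (SE 0.16, adjusted p = 1.09e-06). A second row described as an IDI1-like sequence, LOC110258909, held at most 1.68 CPM in any library.

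MSMO1 (gene ID 396590, chromosome 8, 43726834 to 43745784), which acts on methylsterols, held 194, 309, and 386 CPM in ENT-sham (lowest, median, highest) and 281, 414, and 600 CPM in ENT-BDL, and 6 of 10 ENT-BDL livers were above every ENT-sham liver. Its PN group means were 390 to 402 CPM. MSMO1 was higher than in ENT-sham in ENT-BDL (log2 fold change 0.48, SE 0.13, adjusted p = 0.0055), SLE-sham (0.40, SE 0.13, adjusted p = 0.0156), and MLE-sham (0.41, SE 0.13, adjusted p = 0.0189). With the pig identifier number as a block, its MLE-sham adjusted p was 0.0693.

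LSS and DHCR7 passed the test in none of the 9 comparisons of groups. LSS (gene ID 100625138, on an unplaced scaffold, bases 519582 to 554042), the lanosterol synthase, had group means of 247 CPM in ENT-sham to 295 CPM in SLE-sham. Its log2 fold change against ENT-sham was 0.17 in ENT-BDL (SE 0.10, adjusted p = 0.285), 0.25 in SLE-sham (SE 0.10, adjusted p = 0.066), and 0.23 in MLE-sham (SE 0.11, adjusted p = 0.122). The SLE-sham value passed without SLE-sham replicate 10 (0.30, adjusted p = 0.0289) and without SLE-BDL replicate 7 (0.25, adjusted p = 0.0481). DHCR7 (gene ID 100627707, chromosome 2, 2377352 to 2391846), at the end of the pathway, had means of 186 to 195 CPM in 5 groups and 221 ± 40.9 CPM in ENT-BDL (SD, n = 10). Its ENT-BDL log2 fold change was 0.25 (SE 0.11, adjusted p = 0.116), and those of SLE-sham and MLE-sham against ENT-sham were -0.01 (SE 0.11) and 0.04 (SE 0.11). Without SLE-BDL replicate 7, DHCR7 was lower in SLE-BDL than in ENT-BDL (-0.31, adjusted p = 0.0202).

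INSIG1 (gene ID 403162, chromosome 18, 2885494 to 2898758), is the sterol-dependent brake. ENT-sham livers held 151, 211, and 303 CPM (lowest, median, highest), and ENT-BDL livers held 166, 292, and 484 CPM. Only 1 of 12 ENT-sham livers was below every ENT-BDL liver, and the log2 fold change of 0.44 (SE 0.17) did not pass the test (adjusted p = 0.0569). It did so without ENT-sham replicate 2 (0.48, adjusted p = 0.0352), without SLE-BDL replicate 7 (0.45, adjusted p = 0.0411), and in 3 other alternatives (adjusted p of 0.025 to 0.119 over all 12). In sham pigs on PN the values were higher, with 250 to 604 CPM in SLE-sham (mean 374 ± 115, SD, n = 10) and 317, 447, and 608 CPM (lowest, median, highest) in MLE-sham, so that no MLE-sham liver overlapped with ENT-sham. Against ENT-sham the log2 fold change was 0.74 in SLE-sham (SE 0.17, adjusted p = 0.000517) and 1.01 in MLE-sham (SE 0.17, adjusted p = 9.98e-06). INSIG1 was also the only one of the 6 genes that differed between BDL groups, at 0.52 in SLE-BDL compared with ENT-BDL (SE 0.17, adjusted p = 0.0258). SLE-BDL replicate 7 held the highest SLE-BDL value of all 6 genes, 754 CPM for INSIG1, and without it this difference was 0.40 and missed the test (adjusted p = 0.0921), as it did when only these groups were fitted (adjusted p = 0.102). MLE-BDL against ENT-BDL gave 0.44 (SE 0.18, adjusted p = 0.0889).

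**Figure D1:**
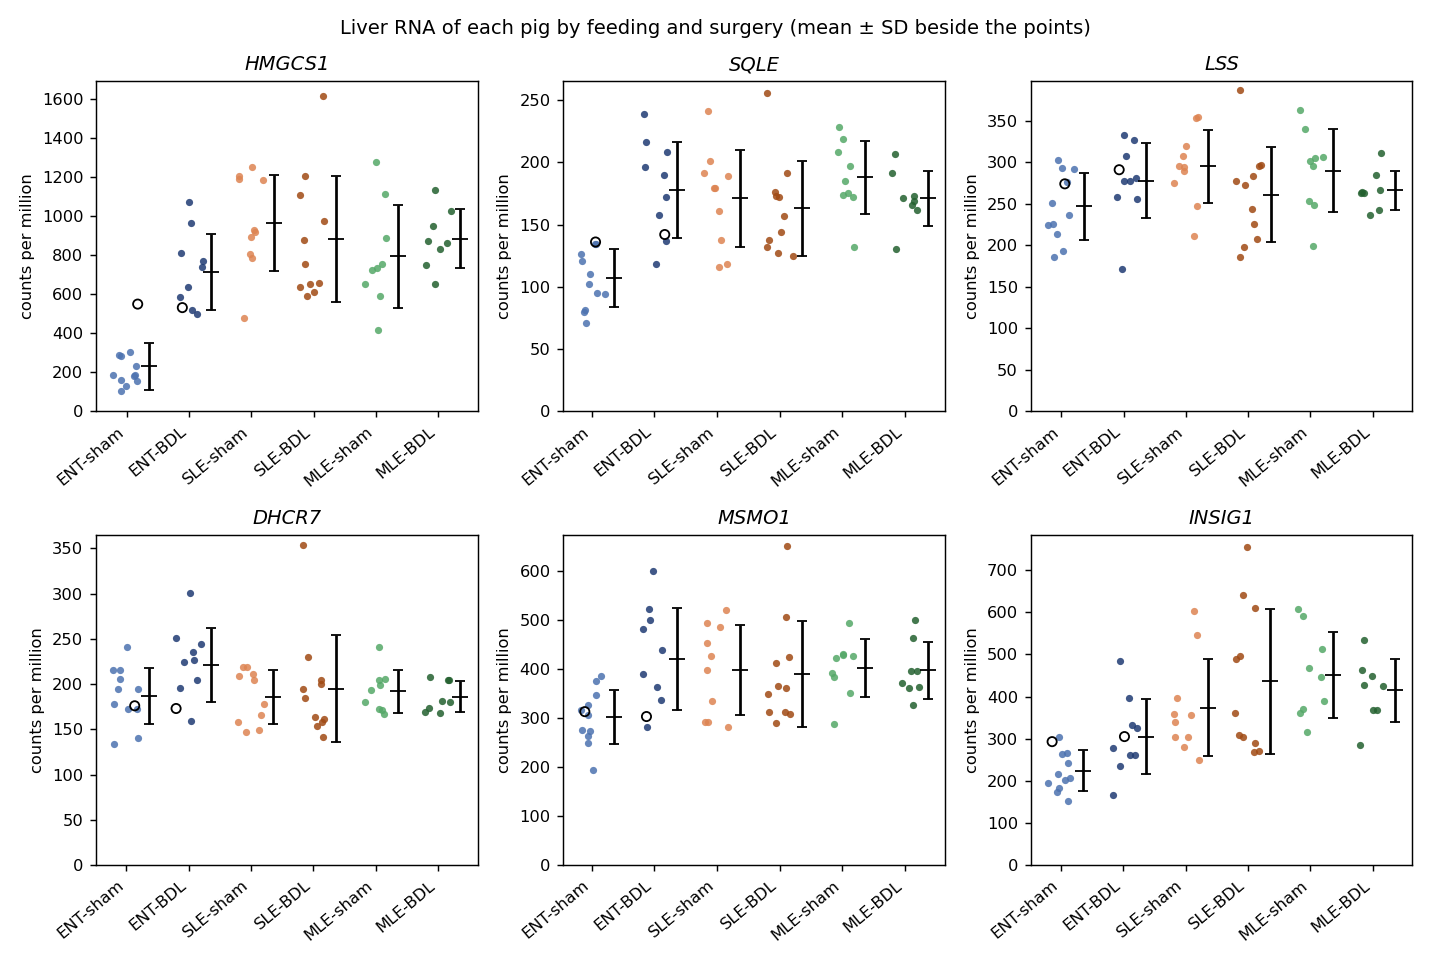
Expression of each of the 6 genes in every liver, in CPM (y axis, from 0) by group (x axis), with the mean and SD beside the points. Open circles are the matching ENT-sham replicate 2 and ENT-BDL replicate 1. HMGCS1 ran from 105 to 306 CPM in the other 11 ENT-sham livers and started at 417 CPM outside ENT-sham, while LSS and DHCR7 overlapped across all groups.

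To ask whether the response to BDL depended on nutrition, BDL was compared with sham on each feed. In ENT pigs 3 of 6 genes rose (HMGCS1, SQLE, and MSMO1), where 17.4% of the 16210 tested genes passed in either direction and 8.89% rose. The 6 log2 fold changes had a median of 0.46, against 0.01 over all tested genes. HMGCS1 was the only one of the 6 that changed more than 2-fold, as 3.39% of all genes did. In SLE pigs 0 of 6 genes passed (4.54% of all genes), with log2 fold changes of -0.17 to 0.22. In MLE pigs 0 of 6 passed (14.4% of all genes), with log2 fold changes of -0.13 to 0.16. For both PN feeds, 0 of 6 had an unadjusted p under 0.05 in edgeR, and DESeq2 also called 0.

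The differences between these responses were then tested as interactions. The HMGCS1 response to BDL in SLE pigs minus that in ENT pigs was -1.76 on the log2 scale (SE 0.29, adjusted p = 0.000283), and in MLE pigs minus ENT pigs it was -1.48 (SE 0.30, adjusted p = 0.0423). The values for SQLE were -0.81 (SE 0.18, adjusted p = 0.00614) and -0.87 (SE 0.19, adjusted p = 0.0431). These 2 of 6 genes passed in each interaction, where 2.33% of all genes passed for SLE and 0.0617% (10 genes) for MLE. Both interactions subtract the same response of ENT pigs, so they are not independent of each other. The isomerase row passed for SLE (-0.97, SE 0.22, adjusted p = 0.00826), whereas its MLE value of -0.91 (SE 0.24) did not (adjusted p = 0.107). It passed without ENT-sham replicate 2 (-0.99, adjusted p = 0.0377), without SLE-BDL replicate 7 (-0.93, adjusted p = 0.0449), and in 3 other alternatives (adjusted p of 0.0107 to 0.161 over all 12). For MSMO1 the values were -0.51 (SE 0.18, adjusted p = 0.134) and -0.50 (SE 0.20, adjusted p = 0.407), and the first passed only once SLE-BDL replicate 7 was left out (-0.62, adjusted p = 0.0396). The HMGCS1 and SQLE interactions were slightly larger without ENT-sham replicate 2, at -1.95 and -1.67 for HMGCS1 and -0.84 and -0.90 for SQLE. Between the responses of MLE and SLE pigs, 0 of 6 genes differed (0.265% of all genes, with 0 of 6 at an unadjusted p under 0.05 and 0 by DESeq2).

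Sham groups were compared to examine nutrition without duct obstruction. HMGCS1, SQLE, MSMO1, and INSIG1 (4 of 6 genes) were higher in SLE-sham than in ENT-sham, where 27.5% of all genes passed and 13.9% were higher. Their MLE-sham comparison likewise held 4 of 6, with 21.1% of all genes passing and 10.7% higher. The median of the 6 log2 fold changes was 0.54 in SLE-sham and 0.61 in MLE-sham, against -0.01 over all tested genes in both. Because ENT-sham is the reference in these comparisons and in the BDL response of ENT pigs, they share its livers and are not independent of each other.

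Between the lipid emulsions no difference was found for these genes. In MLE-sham compared with SLE-sham, 0 of 6 genes passed (0.999% of all genes), and HMGCS1 gave -0.28 (SE 0.21) and INSIG1 0.27 (SE 0.18). In MLE-BDL compared with SLE-BDL, 0 of 6 passed (0.907% of all genes), with log2 fold changes of -0.07 to 0.07. In neither comparison did a gene have an unadjusted p under 0.05, and DESeq2 called 0 in both. Among BDL groups, 1 of 6 genes (INSIG1) passed in SLE-BDL against ENT-BDL (19.6% of all genes) and 0 of 6 in MLE-BDL against ENT-BDL (16.8% of all genes), where 2 had an unadjusted p under 0.05 and DESeq2 called 0.

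**Figure D2:**
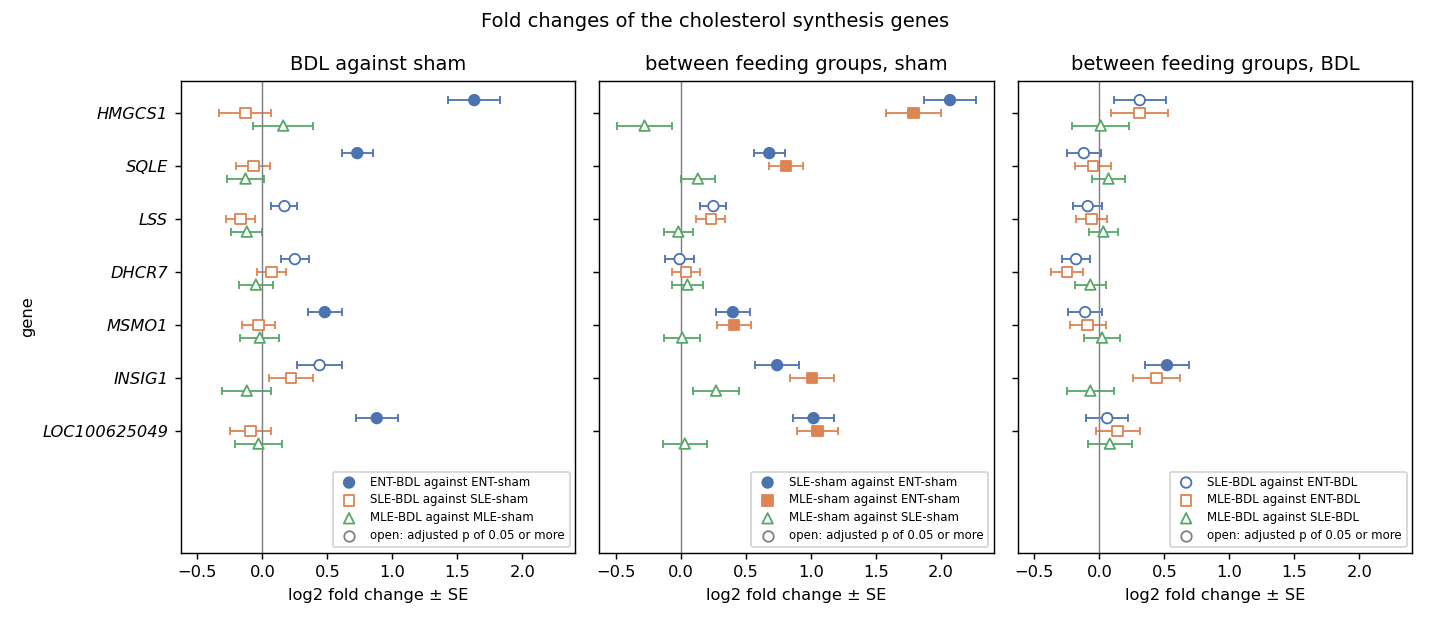
Log2 fold change with its SE (x axis) of the 6 genes and the isomerase row LOC100625049 (y axis) in the 9 comparisons of groups, where filled symbols passed at an adjusted p under 0.05. BDL gave HMGCS1 1.63 in ENT pigs against -0.13 and 0.16 in SLE and MLE pigs, and in the BDL groups INSIG1 alone passed, at 0.52.

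Ordering the 6 groups by mean placed ENT-sham lowest for every gene but DHCR7, where SLE-sham, MLE-BDL, and ENT-sham lay within 1 CPM of each other at 186 to 187 CPM. The step from ENT-sham to the next group passed the test for HMGCS1, SQLE, MSMO1, and the isomerase row, and missed it for INSIG1 and for LSS (0.08, SE 0.10, adjusted p = 0.584). No later step between neighbors passed for any gene. Neighbors in an observed order have the smallest differences, so all 10 pairs of the other 5 groups were also compared. For INSIG1 2 of these pairs passed, SLE-BDL and MLE-sham each against ENT-BDL (0.52, and 0.57 with SE 0.18 and adjusted p = 0.013), and for each of the other genes 0 of 10 did.

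Levels of different genes were compared as CPM per kilobase of gene length. In ENT-sham the highest mean was that of MSMO1, at 155 CPM per kilobase, followed by INSIG1 at 78.7, DHCR7 at 77.2, LSS at 49.4, HMGCS1 at 43.7, and SQLE at 36 CPM per kilobase. In SLE-sham HMGCS1 stood at 183 CPM per kilobase, next to MSMO1 at 205. HMGCS1 thus passed LSS, DHCR7, and INSIG1 between these groups, while SQLE (57.6 CPM per kilobase) stayed lowest.

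The other enzymes of the pathway were examined as a list of 15 tested genes. In ENT-BDL compared with ENT-sham 7 were higher and 0 lower (8.89% of all genes were higher), with a median log2 fold change of 0.28. MVD, which makes isopentenyl diphosphate, went from 71.5 ± 13.8 CPM in ENT-sham (SD, n = 12) to 107 ± 25.7 CPM in ENT-BDL (n = 10), a log2 fold change of 0.59 (SE 0.12, adjusted p = 0.000404). FDPS, the farnesyl diphosphate synthase, rose by 0.57 (SE 0.11, adjusted p = 0.000214), and CYP51, the lanosterol demethylase, rose by 0.53 (SE 0.13, adjusted p = 0.002). These rises were close in size to those of SQLE and MSMO1. In SLE-sham 10 of 15 were higher than in ENT-sham (median 0.58, with 13.9% of all genes higher), and in MLE-sham 12 of 15 were (median 0.64, with 10.7% higher), with 0 lower in either. MVD gave 0.94 and 1.00 and ACAT2, which condenses acetyl-CoA at the entry to the pathway, gave 0.92 and 0.86.

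With BDL, 0 of 15 passed in SLE pigs (4.54% of all genes; 1 of 15 had an unadjusted p under 0.05, and DESeq2 called 0). In MLE pigs 1 of 15 passed, where 14.4% of all genes did. This was MVK, the mevalonate kinase, which was lower (-0.51, SE 0.17, adjusted p = 0.0312). The response differed between SLE and ENT pigs for 4 of 15 (2.33% of all genes), all with the smaller value in SLE. Among them were MVD (-0.80, SE 0.18, adjusted p = 0.00619), FDPS (-0.59, SE 0.16, adjusted p = 0.0341), and TM7SF2, a sterol reductase (-0.58, SE 0.16, adjusted p = 0.0366). The FDPS and TM7SF2 values passed in some alternatives and missed in others. For MLE against ENT 0 of 15 passed, against 0.0617% of all genes (10 of 15 at an unadjusted p under 0.05, and 1 by DESeq2). Not all steps moved: LBR and PMVK, a second sterol reductase and the phosphomevalonate kinase, passed in none of the 3 comparisons of ENT-BDL, SLE-sham, or MLE-sham with ENT-sham.

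**Figure D3:**
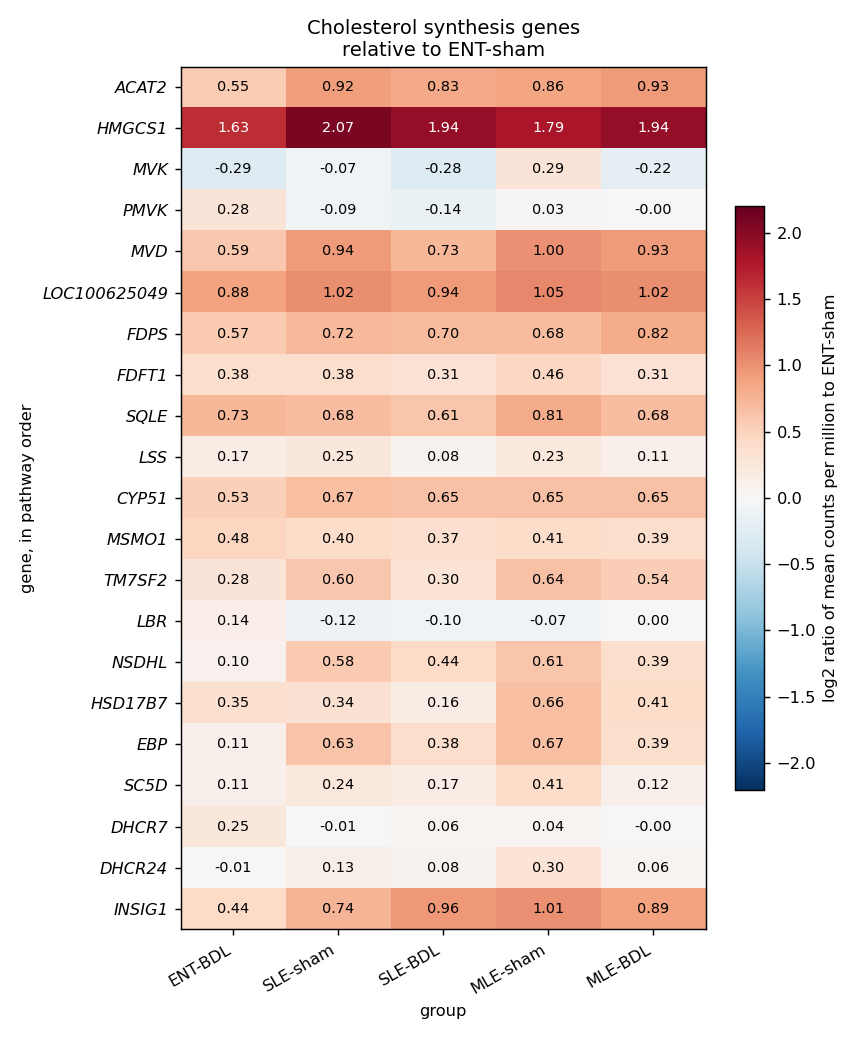
Log2 ratio of the mean CPM of each group (columns) to that of ENT-sham for the 6 genes, the isomerase row, and the other named enzymes (rows, in pathway order with the regulator INSIG1 last). HMGCS1 reached 2.07 in SLE-sham, MVD 1.00 in MLE-sham, and LBR stayed between -0.12 and 0.14.

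The regulators of SREBP, together with the electron donor POR, were next examined as a list of 10 genes. INSIG2, the second sterol-dependent brake, was highest in ENT-sham among these groups. Its ENT-sham livers held 42.0, 60.3, and 84.3 CPM (lowest, median, highest), ENT-BDL livers 28, 43.9, and 58 CPM, SLE-sham livers 20.8, 28, and 49.8 CPM, and MLE-sham livers 19.3, 25.8, and 43.9 CPM. INSIG2 fell by 0.45 on the log2 scale in ENT-BDL (SE 0.14, adjusted p = 0.0172), by 0.97 in SLE-sham (SE 0.14, adjusted p = 2.62e-07), and by 1.06 in MLE-sham (SE 0.15, adjusted p = 1.74e-07), each against ENT-sham. In BDL pigs it was also lower in SLE than in ENT (-0.47, SE 0.14, adjusted p = 0.0135) and lower in MLE than in ENT (-0.95, SE 0.16, adjusted p = 1.07e-05).

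SREBF2, which encodes SREBP-2, was higher than in ENT-sham in ENT-BDL (0.26, SE 0.08, adjusted p = 0.0238), SLE-sham (0.35, SE 0.08, adjusted p = 0.00095), and MLE-sham (0.26, SE 0.09, adjusted p = 0.0209). The ENT-BDL value missed the test when its groups were compared alone (adjusted p = 0.106). SREBF1, the gene of the factor for fatty acid synthesis, fell by 0.93 in ENT-BDL (SE 0.17, adjusted p = 6.36e-05) and by 0.66 in MLE-sham (SE 0.17, adjusted p = 0.00401), and gave -0.36 in SLE-sham (adjusted p = 0.104). The 2 SREBP genes therefore moved in opposite directions in ENT-BDL livers. POR, the electron donor of squalene oxidation and of P450 enzymes, fell by 0.64 in ENT-BDL (SE 0.13, adjusted p = 0.000396), by 0.56 in SLE-sham (SE 0.13, adjusted p = 0.000923), and by 0.54 in MLE-sham (SE 0.14, adjusted p = 0.00262). Its response to BDL was higher in SLE than in ENT pigs by 0.91 (SE 0.19, adjusted p = 0.0035).

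The other regulators described here changed little. SCAP, the sterol sensor, gave 0.18 in SLE-sham (SE 0.06, adjusted p = 0.0348) and 0.17 in MLE-sham (SE 0.07, adjusted p = 0.0544). MBTPS1, a protease that releases SREBP, fell by 0.19 in ENT-BDL (SE 0.06, adjusted p = 0.0128), by 0.18 in SLE-sham (SE 0.06, adjusted p = 0.00972), and by 0.33 with BDL in MLE pigs (SE 0.06, adjusted p = 0.000147). MBTPS2 and RNF139 passed in none of the 9 comparisons.

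On the uptake side, 12 genes of lipoprotein uptake and of handling of the cholesterol taken up were tested. In ENT-BDL 2 were higher and 4 lower than in ENT-sham, in SLE-sham 5 were higher and 1 lower, and in MLE-sham 3 were higher and 0 lower. Over all genes 17.4%, 27.5%, and 21.1% passed in these comparisons. The medians of the list were -0.10, 0.03, and 0.03, against 0.01, -0.01, and -0.01 over all tested genes. STARD4, a cytosolic sterol carrier, went from 92.0 ± 17.2 CPM in ENT-sham (SD, n = 12) to 172 ± 22.3 CPM in SLE-sham (n = 10; log2 fold change 0.90, SE 0.12, adjusted p = 2.17e-08) and 164 ± 34.6 CPM in MLE-sham (n = 9; 0.83, SE 0.12, adjusted p = 5.21e-07). NPC1, which exports cholesterol from lysosomes, gave 0.71 (SE 0.13, adjusted p = 2.34e-05) and 0.50 (SE 0.13, adjusted p = 0.00413) in the same comparisons. SCARB1, the HDL receptor, fell by 0.67 in ENT-BDL (SE 0.08, adjusted p = 5.22e-09), and its response was less negative in SLE than in ENT pigs, by 0.47 (SE 0.11, adjusted p = 0.00826).

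Genes of cholesterol storage and export did not follow a single pattern. Of 10 tested, 3 were higher and 2 lower in ENT-BDL than in ENT-sham. In SLE-sham and in MLE-sham 3 were higher and 1 lower than in ENT-sham. Over all genes 17.4%, 27.5%, and 21.1% passed in these comparisons. SOAT1, which esterifies cholesterol, went from 17.2 ± 2.90 CPM in ENT-sham (SD, n = 12) and 19.1 ± 2.81 CPM in ENT-BDL (n = 10) to 31.0 to 32.0 CPM in the 4 PN groups, and every PN liver, at 23.9 CPM or more, was above the highest ENT liver, at 23.5 CPM. Its log2 fold change was 0.87 in SLE-sham (SE 0.09, adjusted p = 5e-11) and 0.87 in MLE-sham (SE 0.09, adjusted p = 2.71e-10), and it was also higher on PN in BDL pigs, by 0.75 in SLE (SE 0.09, adjusted p = 2.96e-08) and 0.70 in MLE (SE 0.10, adjusted p = 6.6e-07). ABCG5, part of the canalicular sterol exporter, shared with HMGCS1 and SQLE a response to BDL that differed between feeds. ABCG5 held 67.5 ± 19.7 CPM in ENT-sham (n = 12) and 124 ± 22.2 CPM in ENT-BDL (n = 10), a rise of 0.88 (SE 0.13, adjusted p = 1.17e-06). Its interactions were -1.27 for SLE (SE 0.18, adjusted p = 2.42e-05) and -0.92 for MLE (SE 0.19, adjusted p = 0.0423). ABCG5 was the only 1 of the 10 listed genes that passed in each interaction (2.33% and 0.0617% of all genes). ABCG8, the other part of that exporter, did not pass.

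The 10 tested genes of conversion to bile acids moved in both directions with BDL. In ENT pigs 3 were higher and 0 lower (17.4% of all genes passed), in SLE pigs 1 was higher and 2 lower (4.54%), and in MLE pigs 2 were higher and 2 lower (14.4%), with medians of -0.06, -0.07, and -0.17. CYP7A1, the rate-limiting enzyme of bile acid synthesis, was higher with BDL by 2.52 in ENT (SE 0.54, adjusted p = 0.00051), 3.51 in SLE (SE 0.69, adjusted p = 0.00155), and 2.84 in MLE pigs (SE 0.83, adjusted p = 0.014). Its levels were far lower on PN, with means of 12.2 ± 16 CPM in ENT-sham (SD, n = 12) and 70.1 ± 43.8 CPM in ENT-BDL (n = 10), against 0.833 CPM in SLE-sham, 0.503 CPM in MLE-sham, 9.51 CPM in SLE-BDL, and 3.52 CPM in MLE-BDL. The lowest SLE-sham and MLE-sham livers held 0 counts. Compared with ENT pigs of the same surgery, CYP7A1 was lower in every PN group, with log2 fold changes of -3.86 in SLE-sham (SE 0.68, adjusted p = 1.41e-05), -4.64 in MLE-sham (SE 0.78, adjusted p = 9.51e-06), -2.87 in SLE-BDL (SE 0.56, adjusted p = 0.000149), and -4.31 in MLE-BDL (SE 0.69, adjusted p = 7.73e-06). Its response to BDL was not shown to differ between feeds (interactions of 0.99 with SE 0.86 for SLE and 0.32 with SE 0.98 for MLE against ENT). ACOX2, an oxidase of the bile acid side chain, fell by 0.31 in SLE (SE 0.10, adjusted p = 0.0491) and by 0.64 in MLE pigs (SE 0.11, adjusted p = 2.89e-05). AMACR, a racemase of the same steps, fell by 0.55 in SLE pigs (SE 0.14, adjusted p = 0.0121), and SLC27A5, a bile acid CoA ligase, fell by 0.95 in MLE pigs (SE 0.30, adjusted p = 0.0213). NPC1L1, a sterol transporter from the storage and export list, was higher with BDL on each feed, by 1.26 (SE 0.31, adjusted p = 0.00247), 1.73 (SE 0.32, adjusted p = 0.000687), and 1.98 (SE 0.35, adjusted p = 4.99e-05). By contrast, HMGCS1, SQLE, and MSMO1 passed with BDL in ENT pigs and in neither PN feed, and for MSMO1 the difference between feeds did not pass.

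Fatty acid synthesis, which shares SREBP control, was less uniform. Of 15 genes, 3 were higher and 2 lower in ENT-BDL than in ENT-sham (median 0.04), 5 were higher and 1 lower in SLE-sham (median 0.10), and 2 were higher and 0 lower in MLE-sham (median -0.07), where 17.4%, 27.5%, and 21.1% of all genes passed. ME1, which supplies NADPH, was higher with BDL in ENT (0.85, SE 0.18, adjusted p = 0.00041), SLE (0.75, SE 0.19, adjusted p = 0.0112), and MLE pigs (0.80, SE 0.20, adjusted p = 0.00417). THRSP, a lipogenic protein, fell by 1.00 with BDL in ENT pigs (SE 0.29, adjusted p = 0.0108) and by 1.66 in MLE pigs (SE 0.33, adjusted p = 0.000294).

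Beyond the differences between groups, the genes varied together from pig to pig. After group means were subtracted, the 15 pairs of the 6 genes had Pearson correlations of 0.14 to 0.82 over 60 libraries (median 0.50). HMGCS1 and SQLE were the closest pair at 0.82, and SQLE and MSMO1 followed at 0.74. INSIG1 was the loosest, at 0.14 with LSS and 0.22 with DHCR7. These values come from the same libraries and are given as a description without a test.

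Each of the other 16204 genes was then compared with the mean of the 6. The closest were CYP51 (0.83), MVD (0.81), ACSS2 (0.80), LOC100625049 (0.80), FDPS (0.80), AACS (0.77), ACAT2 (0.77), FDFT1 (0.74), and EBP (0.71). Of the 10 closest genes 7 belonged to the other cholesterol synthesis list, and ACSS2 and AACS supply acetyl-CoA and acetoacetyl-CoA. Over all genes the median was -0.00 and the 99th percentile 0.37. Above that percentile lay 13 of 15 other cholesterol synthesis genes, 12 of 15 fatty acid synthesis genes, and 4 of 12 uptake genes. So did 1 of 10 genes of the SREBP regulator list (SREBF2, 0.44), 1 of 10 bile acid genes, and 0 of 10 storage and export genes.

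**Figure D4:**
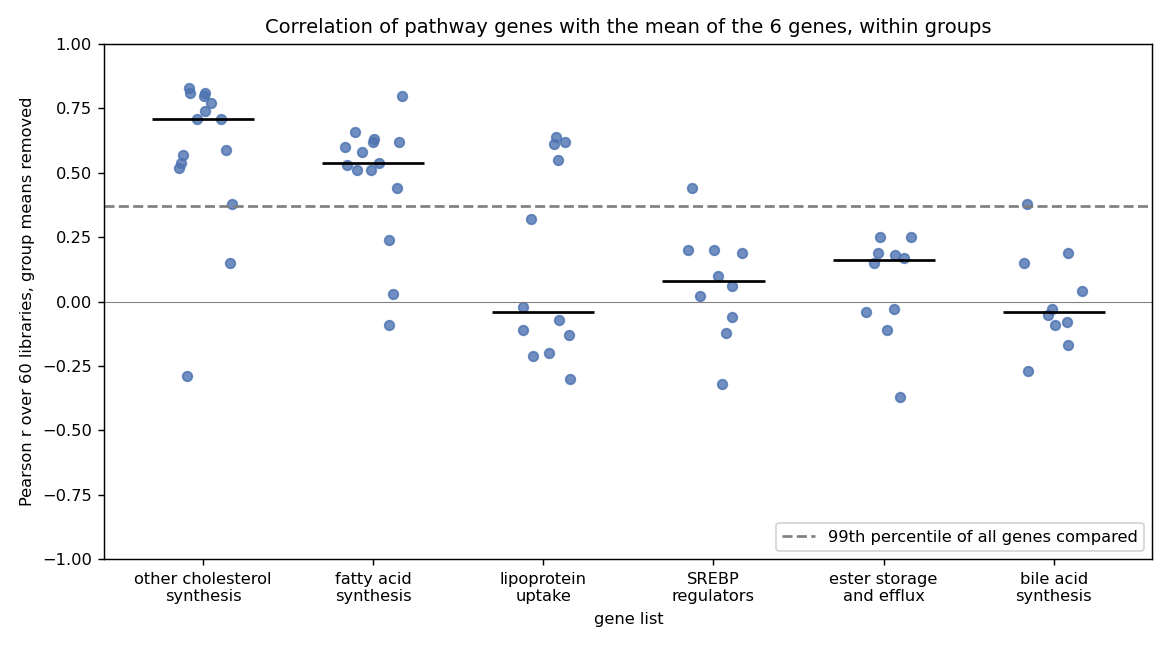
Pearson correlation of each pathway gene with the mean of the 6 genes over 60 libraries after group means were removed (y axis), by gene list (x axis), with the median of each list as a bar and the 99th percentile of all genes (0.37) as a dashed line. The medians were 0.71 for the other cholesterol synthesis genes, 0.54 for fatty acid synthesis, and -0.04 for lipoprotein uptake.

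Cell type markers moved between some of the same groups. In bulk liver, fewer cells of a type and less RNA per cell cannot be told apart. Summed cholangiocyte markers, 9 of 10 named in the table, were also lowest in ENT-sham, with a median of 144 CPM (range 88.2 to 395). In ENT-BDL the median was 307 CPM (238 to 392), on SLE it was 318 (231 to 392) with sham and 381 (270 to 446) with BDL, and on MLE it was 222 (194 to 267) with sham and 364 (262 to 460) with BDL. They were thus also higher with BDL in MLE pigs, where the 2 groups overlapped only between 262 and 267 CPM. Of 8 tested cholangiocyte markers, 4, 0, and 5 were higher with BDL on ENT, SLE, and MLE, and 0 were lower. Over all genes 17.4%, 4.54%, and 14.4% passed. Against ENT-sham, 3 of 8 were higher in SLE-sham and 2 of 8 in MLE-sham (27.5% and 21.1% of all genes passed). Only 4 and 5 of the 8 had log2 fold changes above 0 there, with medians of -0.05 and 0.15. Hepatocyte markers, 10 of 10, had summed means of 108444 CPM in ENT-sham and 88884 CPM in ENT-BDL, 99865 and 96660 CPM in SLE-sham and SLE-BDL, and 105080 and 77250 CPM in MLE-sham and MLE-BDL. With BDL 3 of 10 were lower and 1 higher in ENT pigs, 0 passed in SLE pigs, and 6 were lower in MLE pigs (17.4%, 4.54%, and 14.4% of all genes passed). Stellate cell and fibroblast markers, 10 of 10, had higher means with BDL on each feed, at 1746 and 2916 CPM in ENT-sham and ENT-BDL, 2282 and 3399 CPM in SLE pigs, and 1923 and 4105 CPM in MLE pigs. Of these 10 genes 3, 3, and 5 were higher with BDL on ENT, SLE, and MLE, and 1, 0, and 1 lower. Over the 6 groups macrophage markers had means of 1068 to 1626 CPM, endothelial markers 1075 to 1371 CPM, and lymphocyte markers 12.9 to 16.2 CPM. Erythroid markers, 9 of 10, had their highest means on ENT feeds, at 1215 CPM in ENT-sham (range 483 to 2464) and 1340 CPM in ENT-BDL (346 to 3905). Their means were 464 CPM in SLE-sham (223 to 850), 636 CPM in SLE-BDL (129 to 1420), 565 CPM in MLE-sham (442 to 846), and 269 CPM in MLE-BDL (141 to 515). Of these 9 genes, 2 were lower in SLE-sham and 2 in MLE-sham than in ENT-sham, 1 was lower in SLE-BDL and 5 in MLE-BDL than in ENT-BDL, and 2 were lower with BDL in MLE pigs. In these 5 comparisons 27.5%, 21.1%, 19.6%, 16.8%, and 14.4% of all genes passed in either direction. The part of these markers in the results was not tested.

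Pig identifiers carry a 3-digit number with 8 values, of which MLE pigs have 4, and its meaning is not given in the sources used here. Within a number HMGCS1 was higher in ENT-BDL than in ENT-sham for 6 of 6 numbers, higher in SLE-sham than in ENT-sham for 4 of 4, and higher in MLE-sham than in ENT-sham for 2 of 2. SQLE gave the same counts. In ENT-BDL against ENT-sham, DHCR7 and the isomerase row were also higher for 6 of 6 numbers. MSMO1, INSIG1, and LSS were higher for only 4 of 6. With the number as a block, the HMGCS1 log2 fold changes were 1.76 in ENT-BDL and 2.30 in SLE-sham against ENT-sham, and its interactions were -1.88 (adjusted p = 2.36e-05) for SLE and -1.62 (adjusted p = 0.00278) for MLE.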

How the data were processed

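Poly(A) RNA-Seq libraries of 60 livers were analyzed. The authors trimmed reads with fastp, aligned them to Sscrofa11.1, and deposited whole-number counts per gene without normalization. The submitters' processing notes list HISAT2 2.0.5, StringTie 1.3.3, and featureCounts 1.5.0-p3. The deposited gene length column was used only for CPM per kilobase. Of 30359 features, 24 have no gene name, hold 0.00842% to 0.0407% of a library's counts, and were left out of totals and tests. The library protocol is not described as stranded, and no gene in the table overlaps the 6 genes or LOC100625049.

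Groups came from the sample labels. Counts were fitted in R 4.3.3 with edgeR 4.0.16 (filterByExpr, TMM, estimateDisp, glmQLFit with robust=TRUE, glmQLFTest) over all libraries and 6 groups, with Benjamini-Hochberg adjustment over 16210 tested genes, two-sided. A gene passed at an adjusted p under 0.05. SE is the size of the log2 fold change divided by the square root of F. CPM use TMM-scaled library sizes, and correlations use log2 CPM with a prior count of 2, with Python 3.11.15, pandas 2.3.3, and numpy 2.4.6. All libraries were fitted as separate animals, although 2 SLE-sham libraries share an identifier. The precision of a value is its SD over pigs or its SE, which include counting error.

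Alternatives were DESeq2 1.42.0, RLE normalization, no filter, the compared groups alone, blocks for replicate number or identifier number, a fold change above 2 (the study's threshold), and fits without the libraries that stood apart. Leaving out SLE-BDL replicate 7 and the comparison of neighbors in the order of groups were chosen after the data were seen. The edgeR and DESeq2 fits were tested on simulated data for ENT-BDL against ENT-sham, with the same spread for every gene. The interactions, blocks, and correlations were not tested in this way. The genes, lists, and alternatives were chosen with earlier results of these data known. Named in the text were the 6 genes, the SREBP regulators, up to 3 genes with the smallest adjusted p per list and comparison, the 10 genes most like the 6, and, chosen after its values were seen, LOC110258909. Some genes selected by this rule are not reported here, although list counts include them. Planned promoter motif searches were not run, since promoter sequences were not used here.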

Additional observations from a re-analysis of the deposited data

Results flagged for a closer look

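The response to BDL differed between feeds by an interaction test for HMGCS1 (SLE minus ENT -1.76, MLE minus ENT -1.48 on the log2 scale), SQLE (-0.81 and -0.87), and the isomerase row LOC100625049 (SLE minus ENT -0.97). Among the other pathway genes named, ABCG5 differed for both PN feeds (-1.27 for SLE and -0.92 for MLE). SLE minus ENT also gave -0.80 for MVD, -0.59 for FDPS, -0.58 for TM7SF2, 0.47 for SCARB1, and 0.91 for POR. With BDL in ENT pigs HMGCS1, SQLE, LOC100625049, ABCG5, MVD, and FDPS rose, POR and SCARB1 fell, and TM7SF2 gave 0.28 (adjusted p = 0.0761). In SLE pigs none of the 9 passed with BDL, and the values were -0.39 for ABCG5, -0.30 for TM7SF2, -0.21 for MVD, -0.20 for SCARB1, -0.13 for HMGCS1, -0.09 for LOC100625049, -0.07 for SQLE, -0.02 for FDPS, and 0.27 for POR.

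A single liver lay far from its group for LSS, ENT-BDL replicate 4, at 171 CPM, where the other 9 livers of its group held more. Among 28 combinations of gene and group with at most 10 pigs this was the 1 such liver. Chance gives about 1 in every 20 combinations, so 1 among 28 is near what chance gives. ENT-sham and SLE-BDL, which hold more pigs, were not examined in this way.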

How the results depend on the processing

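Of 1008 log2 fold changes under alternatives (7 genes, 12 comparisons), 964 kept their direction and their side of the threshold, 6 lost the call, 14 gained it, and 24 changed sign. Each value that changed sign was at most 0.10 in size. When single libraries were left out in turn (ENT-sham replicate 2, ENT-BDL replicate 1, SLE-sham replicates 9 and 10, and SLE-BDL replicate 7), 12 of the log2 fold changes crossed 0. For MLE-BDL against SLE-BDL the ranges were -0.00 to 0.13 for HMGCS1, -0.08 to 0.05 for DHCR7, and -0.08 to 0.03 for INSIG1. For BDL in SLE pigs they were -0.06 to 0.09 for DHCR7 and -0.13 to 0.00 for MSMO1, and for MLE-sham against SLE-sham -0.03 to 0.05 for MSMO1 and -0.01 to 0.07 for LOC100625049. In the interaction of MLE and SLE they were -0.09 to 0.02 for SQLE, -0.16 to 0.00 for DHCR7, and -0.04 to 0.11 for MSMO1. DHCR7 in SLE-sham against ENT-sham ran from -0.04 to 0.03, and LOC100625049 in SLE-BDL against ENT-BDL from -0.10 to 0.06. HMGCS1 in MLE-BDL against SLE-BDL was also -0.01 without a filter, -0.08 with the replicate block, -0.04 with the identifier block, and -0.00 in the groups alone. With the identifier block LSS was -0.05 in that comparison and -0.05 in the interaction of MLE and SLE, where MSMO1 was -0.03 and LOC100625049 -0.01, and DHCR7 was -0.02 in MLE-sham against ENT-sham. MSMO1 in that interaction was -0.01 without a filter, and LOC100625049 in MLE-sham against SLE-sham was -0.01 with the replicate block.

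Requiring a fold change above 2 left 1 gene in ENT-BDL, 1 in SLE-sham, and 2 in MLE-sham against ENT-sham, and 0 in SLE-BDL against ENT-BDL, where comparing the groups alone also gave 0 (INSIG1 adjusted p = 0.102). Replicate numbers were not a pairing, since residuals of the 82 pairs of libraries with the same number correlated at -0.231 to 0.381 (median -0.011). With the replicate block 1 gene was left in the interaction of MLE and ENT (SQLE adjusted p = 0.0602), and MSMO1 had adjusted p = 0.0509 in SLE-sham and 0.0711 in MLE-sham, both against ENT-sham. The causes were not tested. Of 1918 values of pathway genes past the test, 84 lost the call and 0 changed sign. With 8 to 12 pigs a group, the SE of 0.10 to 0.23 for the 6 genes in comparisons of groups limits the smaller differences. Feeding route and feed cannot be told apart in comparisons of ENT with SLE or MLE.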
